A study of Homo sapiens with 9 samples.

Results

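Ferritin, heme oxygenase and the main iron handling genes were examined in BEAS-2B cells after exposure to the condensed aerosol of an e-cigarette. The set held 10 genes, which were FTL, FTH1, HMOX1, TFRC, SLC40A1, SLC11A2, IREB2, ACO1, NCOA4 and BLVRB, and it was formed by matching the Ensembl identifiers of the raw count table to these symbols. These were 10 of the 63187 genes in the table and 10 of the 16030 genes that were tested, so that no member was lost to the filter on low counts. The set was chosen by results of these same libraries: it was named when earlier analyses of the data, in which ferritin and HMOX1 were higher in EC, were already known. The differences of the members between conditions are therefore given as a description, with standard errors and without p-values.

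BEAS-2B is an immortalized line of human bronchial epithelial cells. Untreated cells were the control, PG/VG cells received condensate of the propylene glycol and vegetable glycerin carrier, and EC cells received condensate of an e-liquid with 18 mg/ml nicotine and Virginia tobacco flavor. Both condensates were used at 2% (v/v) for 24 h. Each condition had 3 libraries, numbered 2, 3 and 4, and the number was taken as the batch. EC and PG/VG differ in nicotine and flavor at the same time, so the shares of nicotine and flavor in any EC vs. PG/VG difference cannot be told apart. All libraries came from 1 cell line, and both comparisons with control, that of EC and that of PG/VG, used the same 3 control libraries.

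Cells take up iron bound to transferrin through the transferrin receptor, move it out of endosomes through a divalent metal transporter, store what is not used inside ferritin shells and export the rest through ferroportin. The iron regulatory proteins sense the iron supply and bind a short hairpin, the iron-responsive element (IRE), in the messenger RNAs of this system, where they block translation when the hairpin lies in the 5′ UTR and slow decay when it lies in the 3′ UTR. Heme oxygenase opens the heme ring and frees its iron, and its gene, like both ferritin genes, is a known target of NRF2, the transcription factor of the oxidant response.

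The IRE is shown because it is the regulatory sequence that several members share. Canonical transcripts were searched for a bulged C, 5 paired bases and the loop CAGTGN, and 4 of the 10 members held at least 1 match, while 262 of 20046 protein-coding transcripts (1.31%) did. Positions are on GRCh38, and the bulged C and the loop are in capitals. FTL (chr19:48965337-48965361, plus strand) and FTH1 (chr11:61967576-61967600, minus strand) carried 1 match each in the 5′ UTR, as did SLC40A1 (chr2:189580663-189580687, minus strand).
FTL: cttgCttcaaCAGTGTttggacgga
FTH1: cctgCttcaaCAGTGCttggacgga
SLC40A1: acttCagctaCAGTGTtagctaagt

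The 3′ UTR of TFRC held 4 matches on the minus strand of chromosome 3. In the order of the transcript they lay at chr3:196050981-196051005, chr3:196050577-196050601, chr3:196050512-196050536 and chr3:196050465-196050489.
TFRC element 1: ttatCggaagCAGTGCcttccataa
TFRC element 2: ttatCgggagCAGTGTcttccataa
TFRC element 3: gtatCggagaCAGTGAtctccatat
TFRC element 4: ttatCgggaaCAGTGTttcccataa

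The search required 5 paired bases on each side, so hairpins with a mismatch were not counted, and the absence of a match in the other 6 members says only that these letters were not found. The antioxidant response motif TGACNNNGC was searched on both strands of the RefSeq promoter windows, which run from 250 bases before to 50 bases after a gene's start. It was present in 4687 of 35116 windows (13.3%) and in 1 of the 13 windows of the 8 members with an entry, that of NCOA4. FTH1 and HMOX1 had no entry. Sequence outside these windows was not searched, so a missing match says nothing about sites further from the start.

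The libraries held 16168260 to 24917838 counts assigned to genes, and 46.6% of the variance in log2 CPM lay on a first principal component that placed the 3 libraries of batch 4 apart from the other 6. Batch was therefore a term of every comparison, and each main count is also given without batch 4. The keratins KRT8 and KRT18 were at 301 CPM or more in every library, whereas EPCAM (0.681 to 1.93 CPM) and CDH1 (0.169 to 1.59 CPM) were low, KRT5 never exceeded 1 count, and the mesenchymal genes VIM and FN1 were at 822 CPM or more. The erythroid genes HBA1 and HBA2 were at 0 in all 9 libraries, and HBB and ALAS2 reached 1 and 2 counts. CD163 was at 0, PTPRC did not exceed 2 counts and CD68 did not exceed 7 counts, while CD14 was at 3.07 to 8.89 CPM. EC vs. control gave 1294 genes called higher and 863 called lower at an adjusted p under 0.05 by edgeR's quasi-likelihood test, and with library size as the only scaling the split was 1863 and 486.

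Counts are given as CPM, counts scaled to a common library size by TMM, and log2 fold changes (LFC) are from edgeR with batch as a term, with the standard error (SE) in parentheses. Across the members, 3 of 10 were called higher and 0 lower in EC vs. control, where 8.07% of all tested genes were called higher and 5.38% lower. FTL, HMOX1 and SLC40A1 were the 3 called. In PG/VG vs. control 0 of 10 were called, against 2.63% higher and 1.9% lower of all genes, and in EC vs. PG/VG 2 of 10 were called higher (FTL and HMOX1), against 0.555% higher and 0.299% lower. Since the members were selected on these contrasts, nothing is read from these counts. The median LFC of the 10 members was 0.21 in EC vs. control, 7.9e-06 in PG/VG vs. control and 0.16 in EC vs. PG/VG. The medians of all genes were 0.0078, 0.013 and 0.0024. Because of the same selection, nothing is read from these medians either. Without batch 4 the counts of members called in these 3 comparisons, in the same order, were 4, 0 and 2. The shares of all genes called in that fit are not given. A fit without the batch term called 0 members in each comparison, and 16, 1 and 1 of all tested genes.

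**Figure D1:**
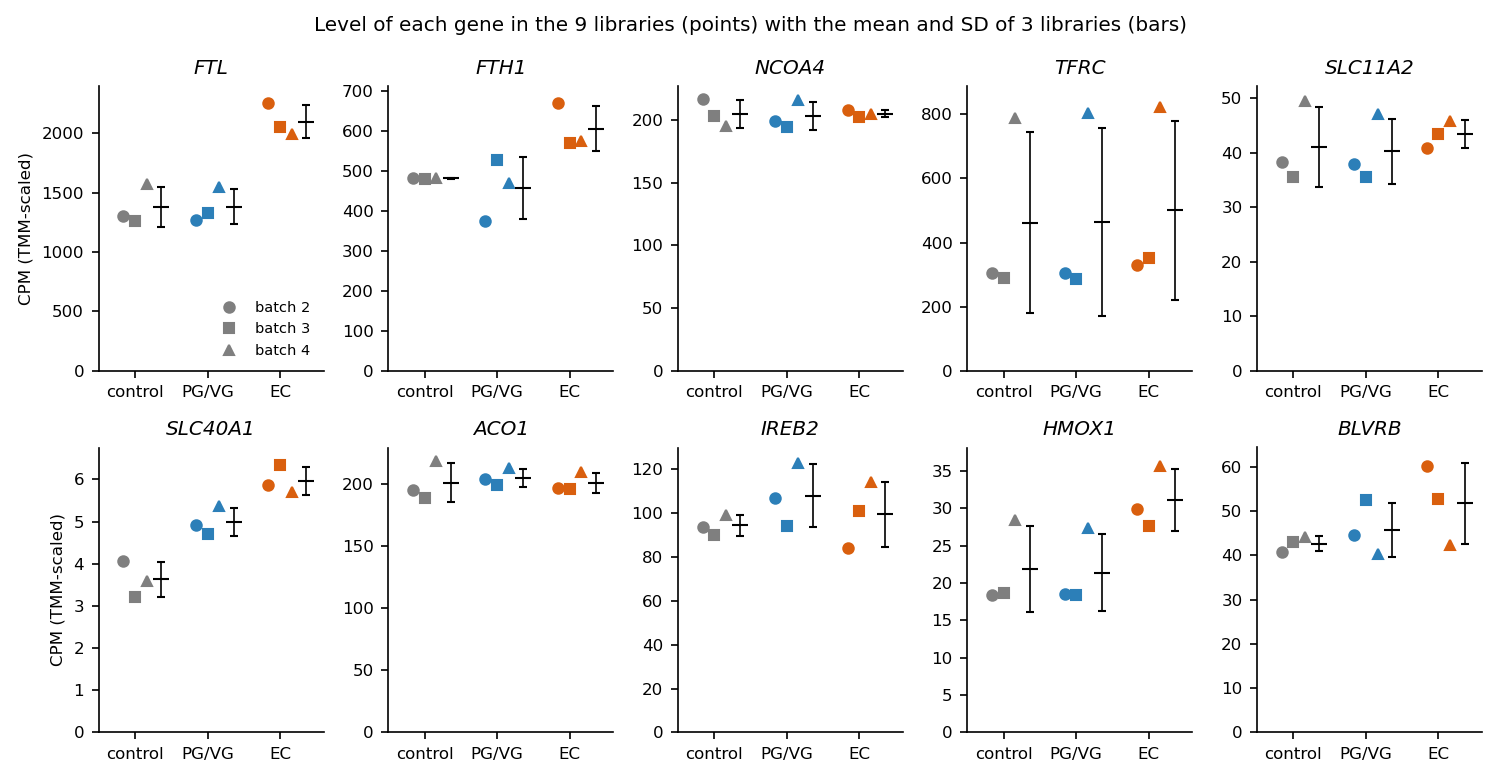
Level of each of the 10 genes in CPM (vertical axes, each from 0) in control, PG/VG and EC libraries. Points are the 9 libraries with the batch as symbol, and bars are the mean and SD of 3 libraries. The 3 EC libraries of FTL (1990 to 2253 CPM) lie above all control and PG/VG libraries, and the 3 libraries of batch 4 stand high for TFRC in every condition.

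FTL, the ferritin light chain, was the most abundant transcript of the set and ranked 21st of all genes by mean CPM. The gene (ENSG00000087086) lies on chromosome 19, plus strand, from 48965309 to 48966879 on GRCh38. The control libraries of batches 2, 3 and 4 held 1304, 1264 and 1575 CPM, the PG/VG libraries held 1266, 1332 and 1549 CPM, and the EC libraries held 2253, 2050 and 1990 CPM. All 3 EC libraries were above every control and PG/VG library, and the control and PG/VG libraries overlapped over most of their range. The mean was 1381 ± 169 CPM in control, 1382 ± 148 in PG/VG and 2098 ± 138 in EC (SD, n = 3). In bulk RNA a shift in every cell and a shift in the share of cells that express the gene cannot be told apart.
The LFC of FTL was 0.61 (SE 0.0803) in EC vs. control, a 1.53-fold higher level, and 0.61 (SE 0.0803) in EC vs. PG/VG. Between PG/VG and control the 3 batches gave log2 differences of -0.04, 0.07 and -0.02. Within batches 2, 3 and 4 the EC to control difference in log2 CPM was 0.79, 0.70 and 0.34. The difference was in the same direction in each batch and smallest in batch 4, where the control level was the highest of the 3 and the EC level the lowest.

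FTH1, the ferritin heavy chain that oxidizes iron as it enters the shell, followed FTL with a smaller difference and a larger SE. Control libraries held 483, 480 and 484 CPM, PG/VG libraries 376, 528 and 471 CPM, and EC libraries 671, 570 and 576 CPM. The EC libraries were the 3 highest of the 9, the control libraries were nearly equal, and the PG/VG libraries fell on both sides of the controls. The LFC was 0.33 (SE 0.105) in EC vs. control and 0.41 (SE 0.105) in EC vs. PG/VG, and neither was called. The EC vs. control difference passed the threshold under 9 of 20 alternative settings, DESeq2 and the omission of the low-count filter among them, and ranged from 0.17 to 0.42. The EC vs. PG/VG difference passed under 6 of 20.
The EC vs. PG/VG value rests largely on batch 2, in which the log2 difference was 0.84, compared with 0.11 in batch 3 and 0.29 in batch 4. Leaving out the PG/VG library of batch 2 lowered the LFC to 0.24, the lowest of the 9 fits that omit 1 library.

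FTH1 (ENSG00000167996, chromosome 11, minus strand, 61959718 to 61967634) shares 63.2% of its exon length with BEST1 on the opposite strand, and the strand setting of the counting is not given in the sources used here. BEST1 itself held 12 to 68 counts per library, against 7597 to 16906 for FTH1. Reads that overlap more than 1 gene were ignored by the authors, so the FTH1 level may be understated and its level relative to other genes is uncertain. Both ferritin genes also have processed copies elsewhere in the genome. Of 16 annotated FTL pseudogenes 6 had any count, and together they held 0.221% to 0.36% of the counts of FTL and its copies. For FTH1, 16 of 25 had a count and the share was 1.38% to 2.34%. The pseudogenes that passed the filter were FTLP3 (mean 4.55 CPM), FTH1P2 (1.89), FTH1P20 (1.91), FTH1P8 (1.89), FTH1P7 (1.49) and FTH1P11 (1.29), and none was called in any comparison, with edgeR adjusted p from 0.158 (FTH1P20 in PG/VG vs. control) to 0.99. Reads that map to several places were also ignored, so part of the ferritin signal may be missing in all libraries.

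Per kilobase of canonical transcript, FTL stood at 3.73, 3.64 and 4.5 times FTH1 in the control libraries of batches 2, 3 and 4. The ratio was 4.65, 3.48 and 4.54 in PG/VG and 4.64, 4.97 and 4.77 in EC. The 3 EC ratios were above the 3 control ratios, while the PG/VG ratios ran from below the lowest control ratio to just above the lowest EC ratio. The mean ratio was 3.96 ± 0.472 in control, 4.23 ± 0.647 in PG/VG and 4.79 ± 0.164 in EC (SD, n = 3). The BEST1 overlap applies to every one of these ratios.

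NCOA4, the receptor that carries ferritin to the lysosome for the release of its iron, was among the members with the smallest differences. Its levels were 217, 203 and 195 CPM in control, 199, 194 and 216 CPM in PG/VG, and 208, 202 and 205 CPM in EC. The 3 conditions overlapped throughout. The EC to control differences in log2 CPM had no common sign, and their SD over the 3 batches was 0.0643.

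The transferrin receptor TFRC, the main entry route for iron, differed far more between batches than between conditions. Control libraries of batches 2, 3 and 4 held 305, 291 and 788 CPM, PG/VG libraries 304, 286 and 803 CPM, and EC libraries 329, 351 and 821 CPM. Batch 4 was 2.64 times the mean of batches 2 and 3 in control, 2.72 times in PG/VG and 2.41 times in EC. Within each batch the EC library was the highest of the 3, with log2 differences from control of 0.11, 0.27 and 0.06. The LFC was 0.15 in EC vs. control (SE 0.0681) and 0.15 in EC vs. PG/VG (SE 0.0679), and was called in neither. TFRC was called in EC vs. control under 1 of 19 alternative settings, library size as the only scaling. TFRC is the member with the 4 elements in the 3′ UTR printed above, whereas the ferritin chains carry 1 in the 5′ UTR.

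SLC11A2, the divalent metal transporter (DMT1) that carries iron out of the endosome, was at 38.2, 35.6 and 49.4 CPM in control, 37.9, 35.6 and 47.0 CPM in PG/VG, and 40.9, 43.4 and 45.8 CPM in EC. The conditions overlapped, and batch 4 held the highest library of each. The EC to control difference in log2 CPM was 0.10, 0.28 and -0.11 in batches 2, 3 and 4, and the LFC was 0.09 (SE 0.0844).

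SLC40A1 encodes ferroportin, the only known cellular iron exporter, and was the member with the lowest level. It held 4.07, 3.22 and 3.6 CPM in control, 4.92, 4.7 and 5.36 CPM in PG/VG, and 5.87, 6.34 and 5.7 CPM in EC. The 3 conditions did not overlap, with control lowest, PG/VG between and EC highest. The LFC was 0.72 (SE 0.163) in EC vs. control, the largest of the 10 members, and 0.46 (SE 0.166) in PG/VG vs. control. The EC vs. PG/VG LFC was 0.26 (SE 0.15). Neither PG/VG vs. control nor EC vs. PG/VG was called for SLC40A1, in the main fit or under any of 19 alternative settings.
In EC vs. control SLC40A1 remained called in 8 of the 9 fits that leave out 1 library and was lost without the control library of batch 3, the lowest of the 9. It had 52 to 149 counts per library, the fewest of the 10 members.

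PG/VG vs. control showed a difference at an unadjusted p under 0.05 for 2 of 10 members, SLC40A1 and IREB2, where 20.1% of all genes passed at that level. DESeq2 with batch as a term also called 0 of 10 in this comparison, against 4.5% of all genes. The other 8 members had an LFC between -0.08 (FTH1) and 0.09 (BLVRB).

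The iron regulatory proteins are encoded by ACO1, whose product is also the cytosolic aconitase, and IREB2. ACO1 held 195, 189 and 219 CPM in control, 204, 199 and 213 CPM in PG/VG, and 197, 196 and 210 CPM in EC, and the conditions overlapped throughout. IREB2 held 93.6, 90.1 and 99.3 CPM in control, 107, 94.1 and 123 CPM in PG/VG, and 83.9, 101 and 114 CPM in EC. PG/VG was above control in each batch for IREB2, with an LFC of 0.19 (SE 0.0815), and EC was below control in batch 2 and above it in batches 3 and 4. Per kilobase, the control mean was 27.0 ± 2.11 for ACO1 and 14.9 ± 0.737 for IREB2 (SD, n = 3).

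HMOX1, the inducible heme oxygenase, ranked 7466th of all genes by mean CPM and showed nearly the same relative difference as FTL. It held 18.4, 18.7 and 28.5 CPM in control, 18.5, 18.4 and 27.4 CPM in PG/VG, and 29.9, 27.6 and 35.7 CPM in EC. The EC libraries were above all PG/VG libraries, whereas the EC library of batch 3 (27.6 CPM) lay below the control library of batch 4 (28.5 CPM). Within batches 2, 3 and 4 the EC to control difference in log2 CPM was 0.70, 0.56 and 0.32. The LFC was 0.53 (SE 0.0939) in EC vs. control, a 1.44-fold higher level, and 0.55 (SE 0.092) in EC vs. PG/VG. PG/VG and control libraries of the same batch differed by no more than 0.06 on the log2 scale.
HMOX1 stayed called in EC vs. control in all 9 fits that leave out 1 library, and in EC vs. PG/VG in 8 of 9, the exception being the fit without the PG/VG library of batch 2. The gene (ENSG00000100292) lies on chromosome 22, plus strand, from 35380361 to 35394214.

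BLVRB encodes biliverdin reductase B and was placed in the set as a gene of heme breakdown. It held 40.8, 42.9 and 44.2 CPM in control, 44.5, 52.4 and 40.3 CPM in PG/VG, and 60.2, 52.7 and 42.2 CPM in EC. EC was above control in batches 2 and 3 and below it in batch 4, with log2 differences of 0.56, 0.30 and -0.07. The LFC of 0.27 (SE 0.0995) was not called. It ranged from 0.11, without the EC library of batch 2, to 0.41, without the control library of batch 4, over the fits that leave out 1 library, and was called in 1 of those 9. With the whole of batch 4 left out it was called at an LFC of 0.42.

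**Figure D2:**
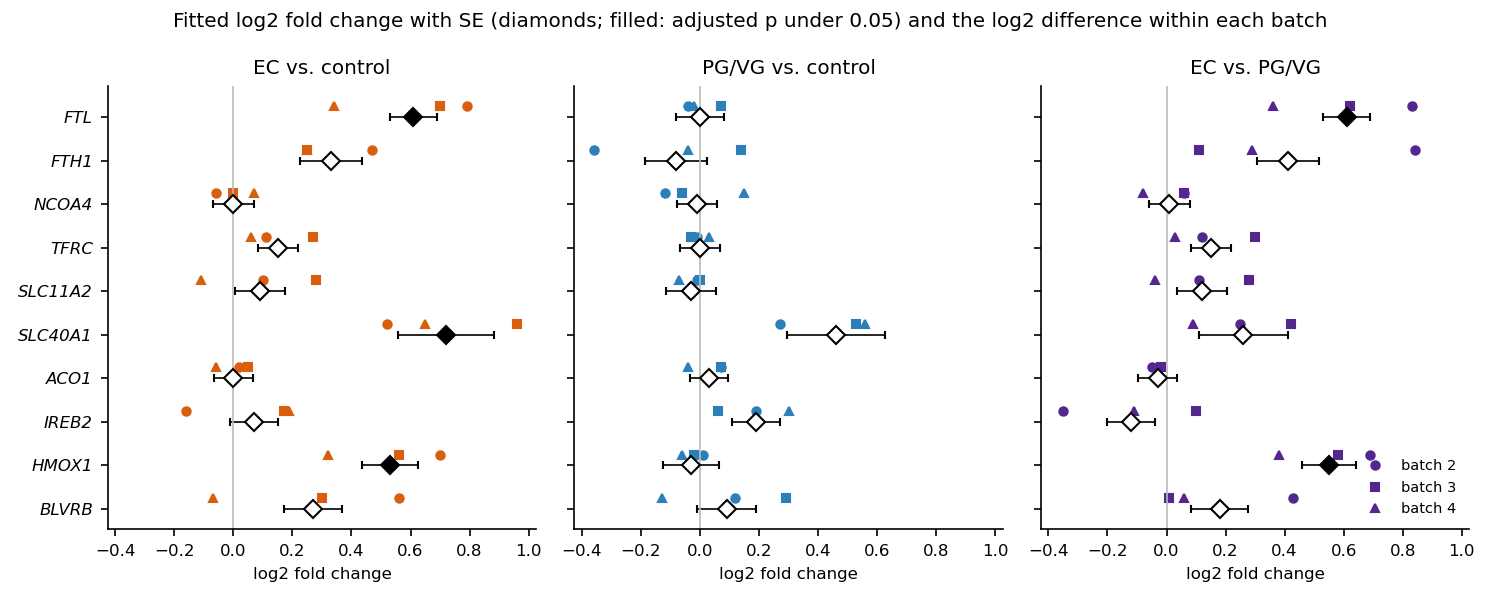
Log2 fold change (horizontal axes) of the 10 genes in the 3 comparisons, 1 panel each. Diamonds with bars are the edgeR estimate and its SE, filled at an adjusted p under 0.05, and coloured symbols are the log2 CPM differences within batches 2, 3 and 4. FTL and HMOX1 lie near 0 in PG/VG vs. control and between 0.53 and 0.61 in both EC comparisons, and batch 4 has the smallest EC difference of each.

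Ordered by the mean per kilobase in control, FTL (1586 ± 194 CPM per kb) was first and FTH1 (401 ± 1.53) second, followed by TFRC (92.1 ± 56.5), NCOA4 (59.2 ± 3.21), BLVRB (53.4 ± 2.13), ACO1 (27.0 ± 2.11), IREB2 (14.9 ± 0.737), HMOX1 (14.1 ± 3.72), SLC11A2 (9.94 ± 1.77) and SLC40A1 (1.09 ± 0.127; SD, n = 3). TFRC, which spans the batches, was not separated from NCOA4 or BLVRB by its SD, and HMOX1 was separated by its SD neither from IREB2 nor from SLC11A2. In EC the same order held at the top, with FTL at 2408 ± 158 and FTH1 at 504 ± 46.8 CPM per kb. The mean of HMOX1 in EC (20 ± 2.66) was above that of IREB2 (15.7 ± 2.35), but their SDs overlapped, so these genes were not separated there either.

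For several members the level in batch 4 was above the mean of batches 2 and 3 in every condition. TFRC had the largest ratios, those of ACO1 did not exceed 1.14, and those of HMOX1 and SLC11A2 were smaller in EC. The ratio of batch 4 to the mean of batches 2 and 3 was above 1 in all 3 conditions for TFRC, for HMOX1, at 1.54 in control, 1.48 in PG/VG and 1.24 in EC, for SLC11A2, at 1.34, 1.28 and 1.09, for IREB2, at 1.08, 1.22 and 1.23, and for ACO1, at 1.14, 1.06 and 1.07. FTL had ratios of 1.23 in control and 1.19 in PG/VG but 0.925 in EC, and BLVRB had 1.06, 0.832 and 0.746. The ratio was lower in EC than in both other conditions for FTL, HMOX1, SLC11A2 and BLVRB, and also for TFRC, FTH1 and SLC40A1. All EC ratios share the same EC library of batch 4. The shares of all tested genes with a ratio lower in EC, or above 1 in every condition, were not determined. Nothing about these genes is therefore read from the ratios. What set batch 4 apart was not tested.

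**Figure D3:**
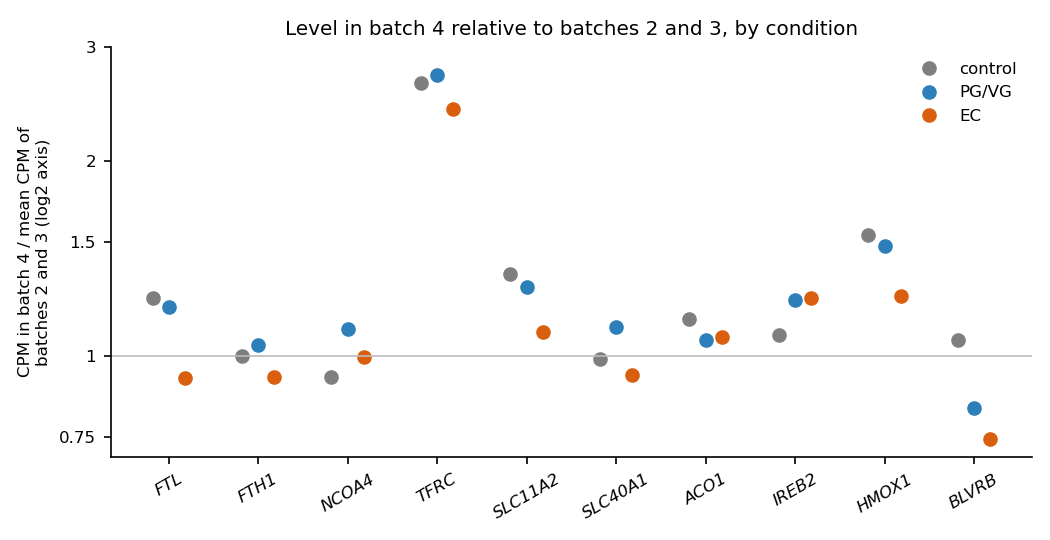
CPM in batch 4 divided by the mean CPM of batches 2 and 3 (vertical axis, log2 scale) for the 10 genes, with 1 point for each of control, PG/VG and EC. TFRC lies at 2.41 to 2.72 in all 3 conditions, and the FTL points of control and PG/VG lie above 1 with the EC point at 0.925.

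After subtraction of the batch mean, FTL and HMOX1 followed the same course over the 9 libraries (Pearson r = 0.994, n = 9 libraries). FTL and FTH1 gave r = 0.859, FTL and TFRC 0.854, and FTL and SLC40A1 0.731. These values are a description, because the libraries share batches, conditions and scaling. By the same measure, among 9492 other protein-coding genes with a mean of at least 10 CPM, the 5 most alike to FTL were SLC37A2 (r = 0.988), NEU1 (0.986), ITPKB (0.985), TOM1 (0.982) and SHISA2 (0.982). For HMOX1 they were SLC37A2 (0.992), SHISA2 (0.989), RIPK4 (0.986), TIPARP (0.986) and NEU1 (0.985). SLC37A2, SHISA2 and NEU1 were thus among the 5 nearest genes of both. For FTH1 they were APOO (0.983), TSPAN17 (0.964), RNPEP (0.961), PARD6B (0.96) and G6PC3 (0.958).

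The members were set beside 112 other genes of iron, heme and oxidant metabolism in 9 lists, of which 98 were tested. In EC vs. control 13 of the 98 rose (13.3%, where 8.07% of all tested genes did) and 5 fell (5.1%, where 5.38% did), with a median LFC of 0.014 against 0.0078 for all genes. In PG/VG vs. control 2 rose and 2 fell (2.04% each, where 2.63% of all genes rose and 1.9% fell), with a median of -0.018 against 0.013. In EC vs. PG/VG 2 rose (2.04%, where 0.555% of all genes did) and 0 fell, with a median of 0.071 against 0.0024. These shares of all genes apply to each list below, and most lists are too short for their counts to be read against them. At an unadjusted p under 0.05 the share of all genes is given only for PG/VG vs. control (20.1%). Such counts in the other comparisons therefore have no background here and are not read. Without batch 4 the counts called were 12, 2 and 4, and the shares of all genes in that fit are not given. The calls then lost were those of PGRMC1, SLC48A1, LYRM4, FDXR, PTGS2 and CHAC1 in EC vs. control, of NEO1 (adjusted p = 0.0679), SLC48A1 and MMS19 in PG/VG vs. control, and of OSGIN1 in EC vs. PG/VG. In PG/VG vs. control and in EC vs. PG/VG the counts without batch 4 also include list genes not called in the main fit, which are not named here. The count of 4 for PG/VG vs. control was 1 without the control or PG/VG library of batch 2 or 3 and 7 without the EC library of batch 2, and that of 2 for EC vs. PG/VG was 1 without the PG/VG library of batch 2 or 4 and 5 without the EC library of batch 3 or 4. The lists were drawn up with earlier results of these data known. Their counts and shares are therefore a description, and nothing is read from their distance to the shares of all genes. Adjusted p-values below are from edgeR over all 16030 genes and do not allow for that choice.

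Among 11 tested genes of iron uptake and transport, 2 rose in EC vs. control. CYBRD1, a ferric reductase, went from 169 ± 11.8 to 205 ± 9.62 CPM (LFC 0.28, adjusted p = 0.0123), and SLC39A8, a zinc and iron importer, from 16 ± 1.02 to 22.7 ± 1.65 CPM (LFC 0.51, adjusted p = 0.00127). The CYBRD1 call was lost in 3 of the 9 fits that leave out 1 library (control of batches 2 and 3, EC of batch 3). None was called in PG/VG vs. control or in EC vs. PG/VG by edgeR, with 3 and 4 of the 11 at an unadjusted p under 0.05. SLC39A14 and PCBP2, the most abundant of this list, had LFCs of -0.04 and -0.18 in PG/VG vs. control and of -0.08 and 0.06 in EC vs. PG/VG. PCBP2 shares 32.7% of its exon length with other genes.

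The list of ferritin relatives, ferroxidases and systemic regulators had 10 genes but only 4 were tested. Mitochondrial ferritin (FTMT) had no count, and the ferroxidases CP and HEPH and hepcidin (HAMP) did not exceed 7, 1 and 3 counts in any library. HFE, a partner of the transferrin receptors, rose in EC vs. control from 9.87 ± 1.13 to 14.4 ± 1.84 CPM (LFC 0.54, adjusted p = 0.00216). NEO1, neogenin, is best known as a guidance receptor and also binds hemojuvelin. It rose in EC vs. control from 17.8 ± 1.22 to 32.3 ± 4.29 CPM (LFC 0.85, adjusted p = 8.42e-06) and in PG/VG vs. control to 26.2 ± 0.961 CPM (LFC 0.56, adjusted p = 0.00263). In EC vs. PG/VG the LFC of NEO1 was 0.30 (adjusted p = 0.161) and that of HFE was 0.29 (adjusted p = 0.217).

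Of 7 tested genes of iron sensing and other IRE-bearing transcripts, 1 rose in EC vs. control, the phosphatase CDC14A, from 6.98 ± 0.796 to 9.86 ± 0.437 CPM (LFC 0.51, adjusted p = 0.0175). Its call was lost in 4 of the 9 fits that leave out 1 library (control of batches 3 and 4, EC of batches 2 and 3). EPAS1 and CDC42BPA, the most abundant of the list, had LFCs of 0.01 and 0.17 in PG/VG vs. control and of -0.13 and -0.27 in EC vs. PG/VG, where edgeR called none of the 7. At an unadjusted p under 0.05, 1 and 3 of the 7 passed in these comparisons.

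Heme synthesis showed 0 of 11 tested genes called by edgeR in any comparison, with 1 at an unadjusted p under 0.05 in EC vs. control, 2 in the PG/VG comparison with control and 0 in EC vs. PG/VG. TMEM14C, a mitochondrial porphyrin carrier, had an LFC of 0.01 in EC vs. control and UROD, an enzyme of the pathway, had one of -0.07.

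Of 12 tested genes of heme transport and breakdown, 4 rose in EC vs. control. The porphyrin exporter ABCG2 went from 9.35 ± 2.2 to 15.7 ± 2.58 CPM (LFC 0.75, adjusted p = 0.00312), and the lysosomal heme transporter SLC48A1 from 17.5 ± 2.09 to 23.8 ± 1.03 CPM (LFC 0.45, adjusted p = 0.00411). POR, the electron donor of heme oxygenase and of cytochromes P450, had an LFC of 0.29 (adjusted p = 0.0149), and the heme-binding membrane protein PGRMC1 had one of 0.22 (adjusted p = 0.0374). POR was lost in 3 and PGRMC1 in 6 of the 9 fits that leave out 1 library, so that only ABCG2 kept its call in all 9 and SLC48A1 lost it without the EC library of batch 4. SLC48A1 also rose in PG/VG vs. control (LFC 0.37, adjusted p = 0.0358), a call lost in 6 of 9 fits. In EC vs. PG/VG edgeR called none of the 12 and 3 were at an unadjusted p under 0.05. PGRMC1 and PGRMC2, the most abundant of the list, had LFCs of 0.14 and 0.04 there.

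Iron-sulfur cluster assembly was the longest list, and in EC vs. control 1 of its 28 tested genes rose and 3 fell. The mitochondrial chaperone HSPA9 fell from 765 ± 97.7 to 585 ± 38.1 CPM (LFC -0.38, adjusted p = 0.000466), MMS19, of the cytosolic targeting complex, from 112 ± 2.86 to 87.4 ± 6.54 CPM (LFC -0.36, adjusted p = 0.00223), and LYRM4, a partner of the cysteine desulfurase, from 35.9 ± 1.54 to 30.3 ± 1.96 CPM (LFC -0.24, adjusted p = 0.0488). FDXR, ferredoxin reductase, had an LFC of 0.42 (adjusted p = 0.0037) and was above control in all 3 batches. LYRM4 was lost in 8 of the 9 fits that leave out 1 library, and FDXR without the EC library of batch 4. The PG/VG libraries also had HSPA9 (LFC -0.27, adjusted p = 0.0183) and MMS19 (LFC -0.28, adjusted p = 0.0297) called lower against the same controls, and these lost the call in 4 and 5 of 9 fits. In EC vs. PG/VG edgeR called 0 of 28, with 4 at an unadjusted p under 0.05, and HSPA9 and CIAO1, the most abundant, had LFCs of -0.11 and -0.02.

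The NRF2 and BACH1 regulators had 0 of 7 genes called by edgeR in each comparison, with 1, 2 and 1 at an unadjusted p under 0.05. NFE2L2, which encodes NRF2, was at 177 ± 39.2 CPM in control and 177 ± 37.0 in EC, and NFE2L1 was at 367 ± 17.7 and 394 ± 21.8 CPM. NFE2L2 shares 38.4% of its exon length with other genes, so its level is uncertain. Of 10 tested sentinel targets of NRF2, 2 rose in EC vs. control and the same 2 rose in EC vs. PG/VG. NQO1, a quinone reductase, was at 352 ± 90.3 CPM in control, 363 ± 85.2 in PG/VG and 514 ± 157 in EC, with an LFC of 0.53 in EC vs. control (adjusted p = 2.13e-05) and 0.48 in EC vs. PG/VG (adjusted p = 0.000698). OSGIN1, an oxidative stress-induced growth inhibitor, was at 6.63 ± 4.2, 7.1 ± 2.66 and 11.9 ± 5.55 CPM, with LFCs of 0.88 (adjusted p = 0.000199) and 0.73 (adjusted p = 0.00685). Both were above control and PG/VG in all 3 batches, and NQO1 shares 19.4% of its exon length with other genes. OSGIN1 lost its EC vs. PG/VG call without the PG/VG library of batch 2 or of batch 4. In PG/VG vs. control edgeR called none of the 10, with 1 at an unadjusted p under 0.05. TXNRD1, thioredoxin reductase and the most abundant of the list, had an LFC of -0.02 in that comparison and NQO1 one of 0.05.

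Of 8 tested genes of lipid peroxidation and ferroptosis, 1 rose and 2 fell in EC vs. control. ACSL4, which loads polyunsaturated fatty acids for incorporation into membranes, fell from 259 ± 11.6 to 208 ± 12.5 CPM (LFC -0.32, adjusted p = 0.0033), and CHAC1, which degrades glutathione, had an LFC of -0.31 (adjusted p = 0.0121). PTGS2, a prostaglandin synthase, had an LFC of 0.71 (adjusted p = 0.039) but was above control in 2 of 3 batches, and its call was lost in 5 of the 9 fits that leave out 1 library. The CHAC1 call was lost in 3 of 9. With PG/VG against control, and with EC against PG/VG, edgeR called none, with 2 and 1 at an unadjusted p under 0.05, and SLC3A2, a subunit of the cystine importer and the most abundant gene of the list, had LFCs of -0.08 and 0.26. ACSL4, the next most abundant, had LFCs of -0.23 (adjusted p = 0.0522) and -0.09.

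**Figure D4:**
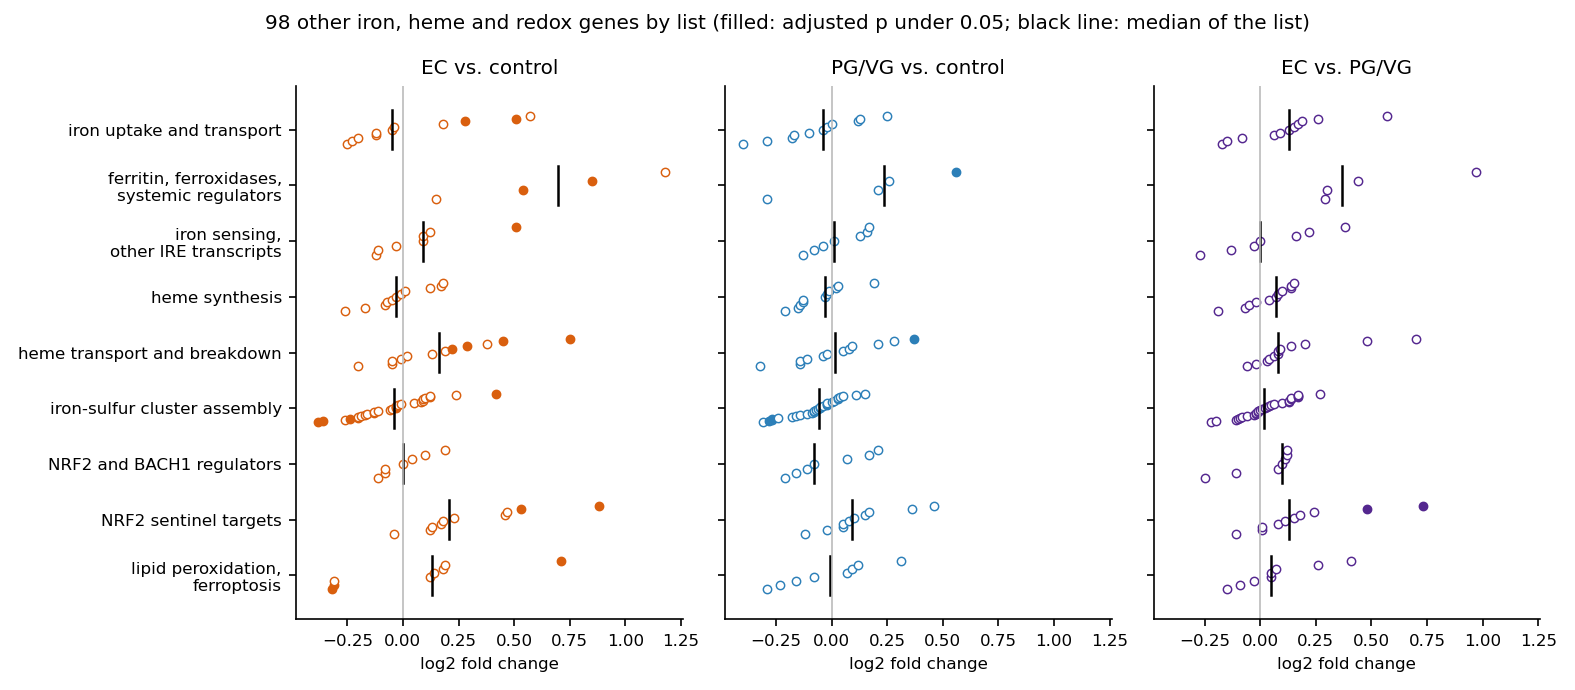
Log2 fold change (horizontal axes) of the 98 other tested genes, grouped by list, with 1 panel for each comparison. Each point is a gene, filled at an adjusted p under 0.05, and black lines are the medians of the lists. In EC vs. PG/VG 2 points are filled, both in the list of NRF2 sentinel targets.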

How the data were processed

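Poly(A) RNA of 9 BEAS-2B cultures was sequenced, with 3 libraries per condition described as biological replicates. Per the labels and the methods, the authors used fastp for trimming and STAR for alignment (GRCh38.p12), and made gene-level counts with featureCounts (Subread 2.0.4), ignoring multi-mapping and multi-overlapping reads; the deposited values are these raw counts, 16168260 to 24917838 per library. Levels are CPM after TMM scaling. A gene was kept with 10 counts or more in 3 or more libraries (16030 of 63187), and edgeR 4.0.16 (R 4.3.3) quasi-likelihood models with condition and batch were fitted to all 9 libraries, with Benjamini-Hochberg adjustment and a threshold of 0.05. The SE is the absolute LFC over the square root of F. Replicate numbers were taken as batch numbers. Deviations of same-numbered libraries from their group means correlated at 0.334 to 0.707 in 9 pairs (different numbers, -0.539 to 0.426 in 18 pairs). The ranges overlap, and batch was used as the replicate block. The fit was run on simulated data in which genes were changed in EC by more than any member's LFC here. That run therefore does not bear on differences of the size reported. The members and lists were chosen with earlier results of these data known. From the lists, every gene with an adjusted p under 0.05 in a comparison is named, otherwise the 2 most abundant. Likeness is Pearson's r of log2 CPM less the batch mean. Gene models are GENCODE 44. Alternatives were other scalings, filters, thresholds, DESeq2 1.42.0, ComBat-Seq (sva 3.50.0), thinning and omission of libraries. Not every cell type marker examined is reported here.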

Additional observations from a re-analysis of the deposited data

How the results depend on the processing

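Without the replicate block the counts of members called were 0 in EC vs. control and 0 in EC vs. PG/VG, and those of the wider lists were 1 in EC vs. control and 0 in both comparisons with PG/VG cells; among the alternatives run, only that setting ended the FTL calls. With library size as the only scaling 6 members were called in EC vs. control, where 1863 of all tested genes were called higher and 486 lower. With no filter on low counts 5 members were called in that comparison. Where the share of all genes under an alternative is not given, its counts of members or list genes are a description only. Library size scaling moved the share of called genes that were higher from 60.0% to 79.3% in EC vs. control, from 58.0% to 72.1% in PG/VG vs. control and from 65.0% to 82.4% in EC vs. PG/VG. In the wider lists an adjusted p under 0.01 left 11 genes in EC vs. control and 1 where PG/VG was set against control. For the latter comparison ComBat-Seq with DESeq2 called 10, the 2 groups alone 8, and the fit without batch 4, chosen after seeing the data, 2. In EC vs. PG/VG no filter gave 5, ComBat-Seq with DESeq2 10, the 2 groups alone 4 and the fit without batch 4 gave 4. Fits that leave out 1 library called 2 to 4 members in EC vs. control, 0 in PG/VG vs. control and 1 to 3 in EC vs. PG/VG, where the lowest count came without the PG/VG library of batch 2. In the wider lists and the same order they called 12 to 17, 1 to 7 and 1 to 5. The PG/VG vs. control count was 1 without control 2, control 3, PG/VG 2 or PG/VG 3 and 7 without EC 2, and the EC vs. PG/VG count was 1 without PG/VG 2 or PG/VG 4 and 5 without EC 3 or EC 4.
Of 576 alternative values for the LFC of single members, 560 stayed within 1 SD of the 3 batch differences and 16 did not, none of a called member changing sign. The causes of these shifts were not tested. With 3 libraries per group and 52 to 149 counts for SLC40A1, small differences in that gene may have been missed, and a detection limit was not determined.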
